A study of Gallus gallus with 24 samples.

Results

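The duodenum of 7-day-old broiler chicks was set against liver, whole brain and breast muscle of the same age, to find the genes whose signal was higher or lower in duodenum than in each of the 3 other tissues. The members are the 3 arrays labelled as day 7 duodenum, out of 24 arrays in the series, and they were compared with 9 arrays of day 7, 3 each from liver, whole brain and breast muscle. All chicks were male Ross broilers, a meat-type strain, with no treatment named in the labels, and the animals of the duodenum group were 7 days old, as were those of the 3 other tissues. Each array carried 1 pool of total RNA from 4 to 5 chicks, so the spread between arrays is that between pools, and whole pieces of tissue were used, with all the cell types they held. The other 12 arrays held the same 4 tissues from chicks sampled at hatch (day 0), and they serve here only to show which differences were smaller or larger at that age.

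The duodenum is the first stretch of the small intestine, into which the pancreas and the gall bladder empty. Its villi are covered by enterocytes, whose apical membrane, the brush border, carries the enzymes that finish digestion and the transporters that take up amino acids, peptides, sugars, fats and minerals. Goblet cells secrete mucus, enteroendocrine cells release hormones in response to food, and lymphocytes lie within and below the epithelium. In the first days after hatch a chick passes from yolk lipid to a feed rich in starch and protein, and the small intestine grows faster than the rest of the body.

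Signals are the deposited intensity values on a linear scale, 1 per probe set and array. Differences are between group means on a log2 scale, taken after the 25th percentile of the day 7 signals, 29.3, was added to each signal, which understates the change of dim genes. They are given as duodenum minus the other tissue, with ± 1 standard error, and a ± after a signal is the SD over 3 pools. A gene was called higher or lower where all 3 differences had the same sign and an adjusted p under 0.05 in limma, with Benjamini-Hochberg adjustment over all probe sets tested for each pair of tissues. Only probe sets whose mean reached 107, the median signal, in at least 1 tissue at day 7 were tested. Some passed this filter through duodenum alone, among them those of RBP2, OLFM4, MEP1B and ATOH1, which favours a call of higher. List members that were dim in every tissue are not among those tested. The adjusted p printed for a gene is the largest of its 3, the smallest difference of a higher gene is the least of its 3, and the nearest difference of a lower gene is the one closest to 0.

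Of the 3 duodenum arrays, that of pool 1 stood apart in its control transcripts and its brightest genes. Control transcripts added before hybridisation averaged 41948 on pool 1 of duodenum, against 5736 and 8885 on pools 2 and 3 and 8031 to 14526 on the 9 arrays of the other tissues. Pool 1 was the brightest of the 3 duodenum pools in 73 of the 100 genes with the highest mean signal in pools 2 and 3. Its median ratio to the mean of pools 2 and 3 was 1.54 in those 100 genes. Over all 11258 genes tested the ratio was 0.985, and pool 1 was the brightest in 4727 (42.0%). Duodenum arrays correlated with each other at 0.914 to 0.981, liver arrays at 0.964 to 0.973, brain arrays at 0.954 to 0.979 and muscle arrays at 0.964 to 0.971. Duodenum thus held both the lowest and the highest correlation within a tissue, the lowest between pools 1 and 3. Duodenum correlated with liver at 0.709 to 0.774, with muscle at 0.596 to 0.656 and with brain at 0.501 to 0.585. Markers of the other tissues were low in duodenum. The summed signal of 24 genes of liver cells was 4730 to 5273 in duodenum and 1077020 to 1301630 in liver. For 21 genes of brain cells it was 1745 to 2741 in duodenum and 212084 to 225936 in brain, and for 22 genes of skeletal muscle 13752 to 18372 in duodenum and 826543 to 988593 in muscle. List counts that moved by more than 1 without duodenum pool 1 are given beside the main ones.

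Of 11258 genes tested, 1136 (10.1%) were higher in duodenum than in every other tissue and 492 (4.37%) were lower. Among them 356 (3.16% of the genes tested) were at least 4-fold higher than every other tissue, and 30 (0.266%) were at least 4-fold lower. LTA4H lay just inside the 4-fold limit with a smallest difference of 2.00 (log2), and FA2H just outside it with 1.99. The lowest duodenum pool lay above all 9 other pools in 1365 genes (12.1%), and the highest lay below them in 635 (5.64%). Without duodenum pool 1 the counts were 1168 higher and 518 lower, and 1036 of the 1136 and 409 of the 492 kept their call. By probe set, 2089 of 25239 (8.28%) were higher, 961 (3.81%) were lower, 670 (2.65%) were at least 4-fold higher and 52 (0.206%) at least 4-fold lower. Compared pair by pair, 2384 genes were higher (21.2%) and 2265 lower (20.1%) in duodenum than in liver, 3529 higher (31.3%) and 3444 lower (30.6%) than in brain, and 3184 higher (28.3%) and 3206 lower (28.5%) than in muscle. The counts of list members below are to be read beside these shares of all genes.

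The 12 genes named next have the largest margins among the called genes whose duodenum pools all lay above the other 9. Several of them belong to the absorptive surface. RBP2, the cellular retinol-binding protein of enterocytes, had signals of 54932, 26264 and 37013 in duodenum, 4.33, 19.6 and 9.29 in liver, 34.5, 8.4 and 6.52 in brain and 15, 8.87 and 4.48 in muscle. Its lowest duodenum pool was far above all 9 others, and the differences were 9.88 ± 0.32 against liver, 9.74 ± 0.32 against brain and 9.93 ± 0.32 against muscle (adjusted p = 1.75e-12). SLC15A1, the brush border carrier of di- and tripeptides, had 45697, 21631 and 29238 in duodenum, 47.5, 80.1 and 13.6 in liver, 40.5, 9.68 and 35.2 in brain and 7.13, 6.39 and 7.59 in muscle, with differences of 8.75, 9.10 and 9.72 from liver, brain and muscle (adjusted p = 2.11e-11). SLC6A19, which takes up neutral amino acids with sodium, had 32153, 15653 and 20445 in duodenum, 199, 98.9 and 5.84 in liver, 34.3, 68.9 and 29.6 in brain and 7.68, 79.3 and 29.96 in muscle. Its margin was smallest against liver (7.75, adjusted p = 1.20e-08), where the 3 pools spread widely at low signal. MEP1A, the alpha subunit of the brush border metalloprotease meprin, had 35789, 17127 and 24039 in duodenum, 102, 137 and 66.7 in liver, 62.1, 91.4 and 77.8 in brain and 124, 115 and 31.8 in muscle (smallest difference 7.58, adjusted p = 7.41e-11). ALPPL, a member of the alkaline phosphatase family, had 57139, 22205 and 26572 in duodenum and 4.35 to 126 in the other 9 pools (smallest difference 8.50, adjusted p = 1.19e-10). This probe set was the brightest of 4 tested for the gene, of which 2 were called higher. Of 46 genes chosen for naming that were called and had more than 1 tested probe set, 22 had at least 1 without the call, and 0 had one called in the other direction.

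Secreted and crypt proteins made up much of the rest of the top 12. CLCA1, a secreted goblet cell protein of the chloride channel accessory family, had 48682, 22263 and 29610 in duodenum and 1.18 to 118 in the other 9 pools (smallest difference 8.79, adjusted p = 2.35e-10). FCGBP, a protein of intestinal mucus, had 30430, 18171 and 21610 in duodenum and 2.02 to 94 in the other 9 pools (8.10, adjusted p = 2.33e-10). OLFM4, which marks crypt cells in the human intestine, had 25046, 14365 and 15454 in duodenum and 2.24 to 36.3 in the other 9 pools (8.57, adjusted p = 1.13e-11). In each of these genes all duodenum pools were far above the others. ANGPTL6, an angiopoietin-like secreted protein, had 78432, 27014 and 37403 in duodenum and 75 to 175 in the other 9 pools. ANGPT1L had 77677, 28524 and 37440 in duodenum and 33.1 to 235 in the other 9 pools. These probe sets gave nearly the same signal in every duodenum pool, and whether they read separate transcripts was not tested. LOC427933 had 26084, 15975 and 16542 in duodenum and 16.9 to 115 in the other 9 pools. GATD3AL2 had 10619, 17597 and 16198 in duodenum and 3.41 to 85.7 in the other 9 pools. All 12 genes were brightest in pool 1 of duodenum except GATD3AL2, in which pool 1 was the dimmest.

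**Figure D1:**
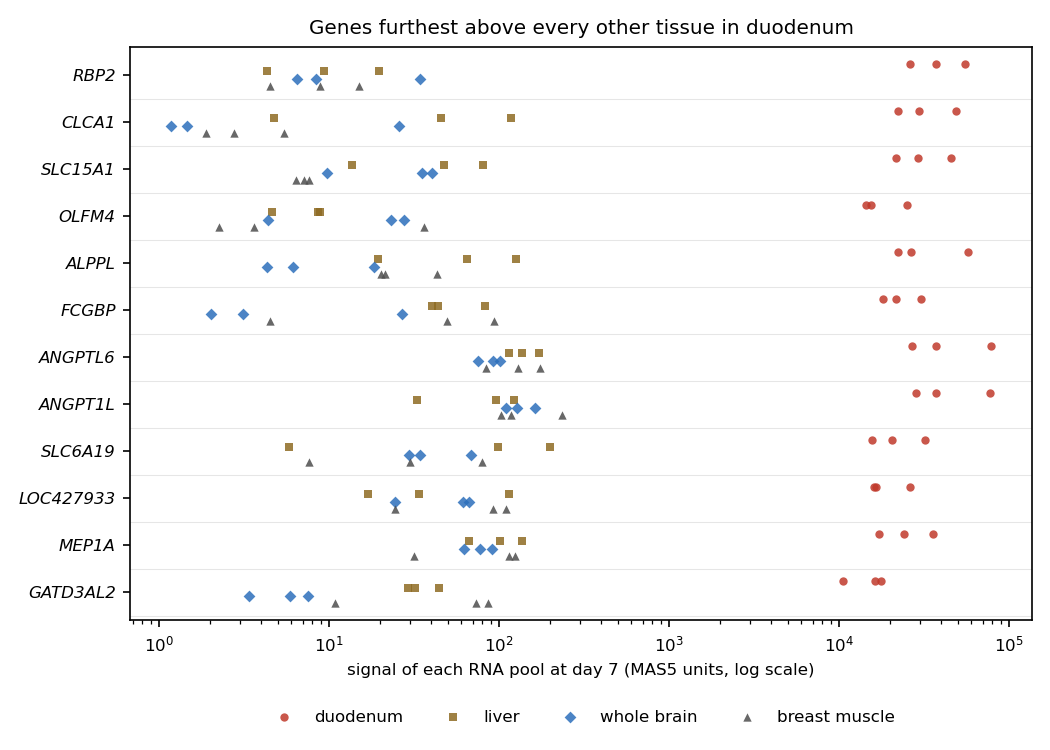
Signals of the 12 genes furthest above every other tissue, 1 point per RNA pool at day 7, on a log scale in the units of the deposited table, with duodenum, liver, whole brain and breast muscle drawn in turn within each row. The duodenum points lie between 10619 and 78432, and no point of the other tissues exceeds 235.

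Brush border hydrolases were higher in duodenum almost as a whole list. Of 17 members tested, 14 were higher than in every other tissue and 3 were not called, against 10.1% of all genes, and the same 14 were called without pool 1. Over the list the median difference was 5.31 against liver, 6.70 against brain and 5.50 against muscle, where the medians of all genes were 0.01, 0.04 and -0.03. Fewer cells of a type and less RNA per cell cannot be told apart in these whole-tissue pools, here and in all that follows. MEP1B, the beta subunit of meprin, had 4995, 6070 and 6673 in duodenum and 0.657 to 24.3 in the other 9 pools (smallest difference 7.19, adjusted p = 1.65e-11). SI, sucrase-isomaltase, which splits sucrose and the branch points of starch, had 12750, 11880 and 21542 in duodenum and 27.8 to 189 in the other 9 pools (smallest difference 6.90, adjusted p = 2.47e-10). MGAM, maltase-glucoamylase, averaged 11656 ± 3583 in duodenum, 47.3 ± 46.7 in liver, 76.4 ± 15.1 in brain and 174 ± 12.1 in muscle. Enteropeptidase (TMPRSS15), which activates trypsinogen in the gut lumen, averaged 5271 ± 830 in duodenum, 26.6 ± 13.8 in liver, 22.4 ± 14.6 in brain and 36.9 ± 34.7 in muscle.

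The peptidases of the list had a less even pattern. MME (neprilysin) and ACE (angiotensin-converting enzyme) were 8.64 and 8.13 above liver, but muscle held part of their signal, and their differences from it were 2.43 and 3.89. ANPEP (aminopeptidase N), DPP4 (dipeptidyl peptidase 4) and ENPEP (aminopeptidase A) had the opposite order, with 1.95, 2.57 and 1.84 against liver and 5.83, 5.43 and 7.49 against muscle. ANPEP averaged 27704 ± 7294 in duodenum, 7000 ± 580 in liver, 145 ± 39.7 in brain and 450 ± 55.1 in muscle. The lactase gene LCT averaged 1796 ± 242 in duodenum, 60.3 ± 59.7 in liver, 72.4 ± 12.2 in brain and 73.1 ± 23 in muscle, and it was called higher by a smallest difference of 4.16. XPNPEP2, ENPP7 and CTSE were the 3 members not called; XPNPEP2 averaged 404 ± 118 in duodenum, 446 ± 189 in liver, 34.1 ± 18.8 in brain and 266 ± 88.6 in muscle.

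Transporters of amino acids and peptides were mixed. Of 15 members tested, 8 were higher than in every other tissue and 1 was lower. SLC7A9 and SLC3A1 are the light and heavy chains of the apical carrier of cystine and basic amino acids. SLC7A9 had 16016, 11037 and 11794 in duodenum and 8.31 to 77.5 in the other 9 pools. SLC3A1 had 8066, 10645 and 11776 in duodenum and 73.6 to 1335 in the other 9 pools. Both were called, with smallest differences of 7.38 and 2.93; the liver pools set the smaller margin of SLC3A1. SLC1A1 (acidic amino acids), SLC36A1 (small neutral amino acids with protons), SLC16A10 (aromatic amino acids) and SLC43A2 (large neutral amino acids) were also called, by 1.92, 2.31, 1.68 and 2.16. SLC7A5, a carrier of large neutral amino acids that many dividing cells use, was lower than in every other tissue, at 131 ± 34.7 in duodenum, 406 ± 56.7 in liver, 1320 ± 406 in brain and 3202 ± 321 in muscle. SLC7A7, the light chain of the basolateral exchanger, had nearly equal means in all tissues, 146 ± 62.1 in duodenum, 146 ± 44.7 in liver, 138 ± 14.6 in brain and 147 ± 35.8 in muscle, and was not called.

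Of 11 tested genes of sugar uptake and fructose breakdown, 3 were higher than in every other tissue, against 10.1% of all genes. Against liver 5 were lower, where 20.1% of all genes were. SLC5A1, the sodium-dependent glucose carrier of the brush border, had 21368, 14114 and 17406 in duodenum, 136, 63.7 and 72 in liver, 41.6, 40.7 and 53.5 in brain and 31.6, 122 and 61.5 in muscle (smallest difference 7.23, adjusted p = 4.44e-11). SLC5A9, a related sodium-dependent carrier, had 610, 598 and 835 in duodenum and 3.68 to 162 in the other 9 pools (smallest difference 2.78, adjusted p = 7.17e-05). SLC2A5, the fructose carrier, had 2553, 2971 and 3670 in duodenum, 1553, 1807 and 1482 in liver, 50.4, 52.5 and 29.3 in brain and 55.2, 23.3 and 43.9 in muscle, so liver came close (difference 0.90, adjusted p = 0.00694). SLC5A1, SLC5A9 and SLC2A5 were the 3 called higher. SLC2A2, the basolateral glucose carrier, KHK (ketohexokinase), TKFC (triokinase) and FBP1 (fructose bisphosphatase) were -1.24, -1.93, -1.29 and -2.07 against liver but 4.31, 4.29, 2.45 and 6.67 against brain. Over the list 9 members were higher than in brain, against 31.3% of all genes. Of the 8 that were higher than in both brain and muscle, as were 2122 of all 11258 genes, 3 were higher than in liver, 4 lower and 1 neither.

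Ion, mineral and acid-base genes had 16 of 25 tested members higher and 1 lower. SLC34A2, the sodium-dependent phosphate carrier of the intestine, had 9262, 8246 and 8412 in duodenum and 25 to 86.5 in the other 9 pools (smallest difference 6.56, adjusted p = 1.39e-11). GUCA2B, uroguanylin, a peptide that sets salt and water secretion, had 112327, 29571 and 44178 in duodenum and 6.43 to 911 in the other 9 pools. Its receptor GUCY2C averaged 8008 ± 1203 in duodenum, 542 ± 293 in liver, 47 ± 19 in brain and 95.3 ± 29.7 in muscle. Ligand and receptor were both called, by 6.15 and 3.92, and pool 1 held the largest GUCA2B signal by a wide gap. SLC26A6, an anion exchanger that carries bicarbonate, had 7368, 7791 and 9577 in duodenum and 7.68 to 210 in the other 9 pools (5.47, adjusted p = 4.81e-09). Of the calcium genes, CALB1 (calbindin, the cytosolic calcium shuttle of chick duodenum) averaged 9382 ± 6125 in duodenum, 20.2 ± 31.5 in liver, 701 ± 243 in brain and 31.3 ± 18.8 in muscle. VDR, the vitamin D receptor, averaged 1025 ± 37.6 in duodenum, 93.7 ± 11.3 in liver, 33.7 ± 27.4 in brain and 55.3 ± 18.6 in muscle, and both were called. TRPV6, an apical calcium channel, had its highest mean in muscle (320 ± 83.9 in duodenum, 249 ± 36 in liver, 691 ± 65.4 in brain and 1577 ± 230 in muscle). Of the iron genes, CYBRD1 (a ferric reductase) and HEPH (a ferroxidase) were called, by 1.59 and 2.44. SLC40A1, ferroportin, was not, at 1242 ± 824 in duodenum, 514 ± 168 in liver, 35.9 ± 10.04 in brain and 94.9 ± 48.2 in muscle.

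Carbonic anhydrases, which make bicarbonate from carbon dioxide, went both ways. CA7 had 3684, 3302 and 3599 in duodenum and 22.7 to 115 in the other 9 pools and was higher by at least 5.14 (adjusted p = 7.52e-09), with no overlap between duodenum and the other tissues. CA2 averaged 9574 ± 1929 in duodenum, 4580 ± 777 in liver, 6041 ± 709 in brain and 5693 ± 709 in muscle and was called by a smallest difference of 0.65. CA13 had 6.76, 53.6 and 39.5 in duodenum and 249 to 511 in the other 9 pools and was lower by -2.87, -2.85 and -2.48 against liver, brain and muscle (adjusted p = 5.44e-06). Of the 3 tested probe sets of CA13, 2 were called. The 262 genes of the SLC family of carriers that were tested, a grouping made after the values were seen, held 47 genes higher than in every other tissue, 17.9% against 10.1% of all genes. Of these, 23 were at least 4-fold higher (8.78% against 3.16%), and 15 genes of the family were lower (5.73% against 4.37%). Among those outside the lists, and named after their values were seen, SLC13A2, which carries citrate and succinate, had 9048, 6059 and 6968 in duodenum and 2.97 to 81.4 in the other 9 pools. SLC28A2, a sodium-dependent nucleoside carrier, had 4458, 6027 and 6904 in duodenum and 5.73 to 232 in the other 9 pools. SLC13A1, a sulphate carrier, had 1560, 1908 and 1934 in duodenum and 15.5 to 121 in the other 9 pools.

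Lipid absorption genes mostly stood above brain and muscle, and went both ways against liver, the other organ that makes lipoproteins. Of 25 members tested, 20 were higher than in both brain and muscle, with median differences of 4.54 and 3.70 over the list. Of these 20, 8 were also higher than in liver, 4 were lower and 8 were neither. Over all 11258 genes, 2122 were higher than in both brain and muscle. Of those 2122, 1136 were also higher than in liver, 287 were lower and 699 were neither. The median against liver was -0.01, and 7 of the 25 were at least 4-fold above brain and muscle and less than 2-fold apart from liver. FABP1, a fatty acid-binding protein of liver and proximal gut, had 224935, 34796 and 49397 in duodenum, 72630, 61252 and 58999 in liver, 24.9, 21.8 and 78.7 in brain and 124, 93.1 and 8.07 in muscle. Pool 1 of duodenum lay above all liver pools and pools 2 and 3 below them, and the difference from liver was 0.19 ± 0.575 (adjusted p = 0.837). APOA4, an apolipoprotein of chylomicrons and of the avian portomicrons that replace them, had 87664, 29768 and 45996 in duodenum, 54752, 39402 and 44168 in liver, 20.3, 22.5 and 9.88 in brain and 129, 34.6 and 34.1 in muscle. APOA1, the main protein of high-density lipoprotein, had 136847, 26518 and 41725 in duodenum, 74928, 57603 and 61213 in liver, 9853, 8347 and 10960 in brain and 7708, 7458 and 6589 in muscle. In both genes the duodenum pools spanned the liver pools. APOB and MTTP, which build and load the lipoprotein particle, differed from liver by -0.57 and 0.40, and from brain by 9.43 and 7.66.

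The 8 lipid genes called higher than in every tissue were FABP2, RBP2, MOGAT2, DGAT2, SCARB1, BCO1, ABCG5 and ABCG8. FABP2, the intestinal fatty acid-binding protein, had 9566, 6204 and 7027 in duodenum and 0.438 to 64.9 in the other 9 pools (smallest difference 6.94, adjusted p = 7.05e-10). MOGAT2, the acyltransferase of the monoacylglycerol route, had 4855, 6238 and 6526 in duodenum and 4.91 to 162 in the other 9 pools (5.49, adjusted p = 5.96e-09). MOGAT1, a related acyltransferase, was lower than in every tissue by -1.43, -1.76 and -1.16. SCARB1, a receptor that takes up carotenoids and cholesterol, had 7218, 8398 and 6895 in duodenum and 78.5 to 746 in the other 9 pools (3.44, adjusted p = 3.08e-08). BCO1, which splits beta-carotene to retinal, averaged 11957 ± 1204 in duodenum, 5412 ± 576 in liver, 42.6 ± 22.1 in brain and 208 ± 69.4 in muscle (smallest difference 1.14). The sterol exporters ABCG5 and ABCG8 were higher than in every tissue by 1.90 and 1.88. The fatty acid transporter CD36 and the lipid droplet protein PLIN2 were lower than in liver, by -2.39 and -2.05.

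Across all genes, 190 (1.69%, and 356 probe sets, 1.41%) were at least 4-fold above both brain and muscle and less than 2-fold apart from liver. Ranked by duodenum signal, the first 6 were FABP1, APOA1, APOA4, CYP3A5, SELENOP1 and CDH1. CYP3A5, a cytochrome P450 of drug and steroid oxidation, had 67145, 25471 and 38457 in duodenum, 25079, 33864 and 30680 in liver, 9.65, 12.1 and 24.3 in brain and 26.6, 19 and 75.5 in muscle. SELENOP1, the plasma selenium carrier, had 57075, 23620 and 33486 in duodenum, 58078, 57823 and 51541 in liver, 7099, 6925 and 7844 in brain and 8304, 9005 and 9170 in muscle. CDH1, E-cadherin, the adhesion protein of epithelial cells, had 71693, 17964 and 22751 in duodenum, 22592, 21078 and 22105 in liver, 49.6, 39.4 and 5.01 in brain and 80.8, 4.75 and 7.42 in muscle. Of these 6, by the probe set used for each, SELENOP1 alone was called against liver, where it was lower by -0.65 (adjusted p = 0.0361). CYP3A5 had 2 tested probe sets, and the one not used here was called higher than in every other tissue.

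Xenobiotic metabolism also stood above brain and muscle and went both ways against liver. Of 31 members tested, 25 were higher than in brain and muscle, against 2122 of all 11258 genes. Of these 25, 10 were also higher than in liver, 5 were lower and 10 were neither, and 9 of the 31 lay less than 2-fold from liver and at least 4-fold above the other 2 tissues. The count higher than every tissue was 12 without pool 1. GSTA4 was lower than in every tissue, a call that was lost without pool 1. The median differences over the list were 0.24 against liver, 5.04 against brain and 4.72 against muscle. CYP3A4, a further cytochrome of that family, had 8498, 14805 and 19136 in duodenum, 1246, 1197 and 1058 in liver, 61, 72.3 and 81.5 in brain and 320, 424 and 345 in muscle (smallest difference 3.49, adjusted p = 7.98e-09). CYP1A1, an oxidase induced through the aryl hydrocarbon receptor, had 3331, 2162 and 3430 in duodenum, 537, 415 and 418 in liver, 95.2, 69.8 and 28.1 in brain and 94.2, 131 and 36.6 in muscle (2.61, adjusted p = 1.60e-05). EPHX1 (epoxide hydrolase) and CYP2C23b were higher by at least 1.71 and 1.496. UGT1A1 and SULT1C3, which conjugate drugs with glucuronic acid and sulphate, differed from liver by 0.34 and 0.13 and from brain by 9.69 and 9.15. CYP2D6, ADH1C and GSTA2 were lower than in liver, by -1.71, -3.01 and -2.75.

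**Figure D2:**
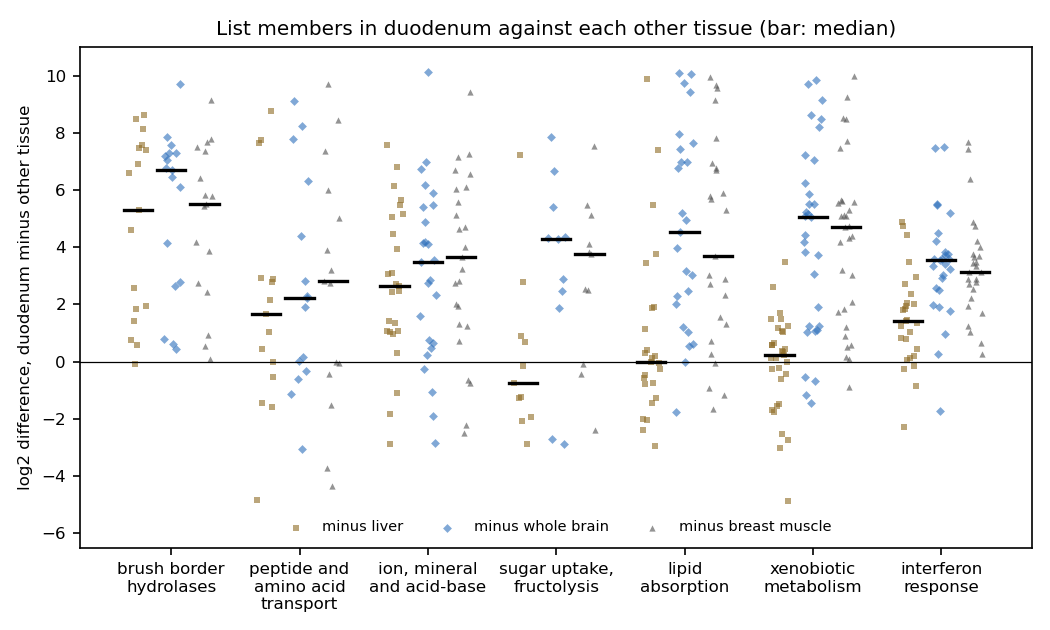
Log2 difference of each tested member of 7 gene lists, duodenum minus liver (squares), minus whole brain (diamonds) and minus breast muscle (triangles), with a bar at the median. Brush border hydrolases have medians of 5.31, 6.70 and 5.50, whereas lipid absorption and xenobiotic metabolism have medians of -0.01 and 0.24 against liver but of 3.70 to 5.04 against brain and muscle.

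Epithelial structure genes had 25 of 37 tested members higher than in every other tissue, with median differences of 2.67 against liver, 4.56 against brain and 5.34 against muscle. VIL1 and PLS1 bundle the actin of microvilli. VIL1 had 18020, 17010 and 16979 in duodenum and 10.7 to 104 in the other 9 pools. PLS1 had 22633, 14304 and 14271 in duodenum and 51.4 to 119 in the other 9 pools. No pool of another tissue overlapped them, and the smallest differences were 7.32 (adjusted p = 9.16e-10) and 7.09 (adjusted p = 1.71e-12). CDH17, a cadherin of the intestine and liver, had 18200, 13177 and 15189 in duodenum and 1.24 to 323 in the other 9 pools. CDHR2, which links the tips of microvilli, had 9207, 8690 and 11487 in duodenum and 46.1 to 312 in the other 9 pools. Both were called, with a smallest difference of 5.67. The partners of CDHR2 at the microvillus tip, CDHR5, USH1C and MYO7B, were called as well, by 4.94, 2.65 and 5.18. EPCAM, an adhesion protein of most epithelia, averaged 62625 ± 49351 in duodenum, 6546 ± 567 in liver, 198 ± 40.1 in brain and 35.3 ± 38.9 in muscle. Of the tight junction claudins, CLDN3 and CLDN10 were called by 1.62 and 4.84, and CLDN1 and CLDN15 were -5.71 and -6.33 against liver.

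Mucus and crypt genes had 11 of 16 tested members higher, and 9 without pool 1. MUC2, the gel-forming mucin of the intestine, averaged 453 ± 152 in duodenum, 5.54 ± 0.106 in liver, 5.57 ± 3.28 in brain and 12.7 ± 8.35 in muscle. AGR2, which folds mucins, had 30120, 16191 and 20686 in duodenum and 3.25 to 1118 in the other 9 pools. The goblet cell factor SPDEF, the secretory lineage factor ATOH1 and the trefoil peptide TFF3 were called by 1.77, 1.78 and 2.28, each at low signal, such as 123 ± 30.9 in duodenum, 10.8 ± 6.44 in liver, 19.3 ± 28.5 in brain and 10.03 ± 1.3 in muscle for ATOH1. ATOH1 passed the signal filter only through duodenum, so its being higher was largely built in. TSPAN8, a tetraspanin of gut epithelium, averaged 10941 ± 1922 in duodenum, 713 ± 49.1 in liver, 20.9 ± 12.7 in brain and 6.96 ± 7.99 in muscle. LGR5, a receptor of intestinal stem cells, averaged 120 ± 136 in duodenum, 44.8 ± 8.02 in liver, 179 ± 42.9 in brain and 71.7 ± 24.5 in muscle and was not called. Named after their values were seen, GPA33, an intestinal surface antigen, had 9176, 12820 and 16536 in duodenum and 15.5 to 103 in the other 9 pools. REG4, a lectin of secretory cells in human gut, also named so, had 6216, 7761 and 13715 in duodenum and 31.8 to 109 in the other 9 pools. TRPM5, a channel of tuft cells in the mouse and likewise named afterwards, had 1830, 3740 and 3193 in duodenum and 1.00 to 39.3 in the other 9 pools.

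Enteroendocrine genes were mostly above liver and went both ways against brain. Of 17 tested, 7 were higher than in every tissue, against 10.1% of all genes, and 12 were higher than in liver, against 21.2%. Against brain, 9 were higher, where 31.3% of all genes were, and 7 were lower, where 30.6% were. GIP, an incretin hormone, had 4258, 5130 and 8095 in duodenum and 3.96 to 105 in the other 9 pools (smallest difference 5.73, adjusted p = 1.89e-10). SCT, secretin, had 945, 2618 and 3603 in duodenum and 1.41 to 46 in the other 9 pools (5.63). MLN, motilin, had 845, 1119 and 1198 in duodenum and 17.5 to 99 in the other 9 pools (3.58). In GIP, SCT and MLN pool 1 was the lowest of the 3 duodenum pools and pool 3 the highest. UCN3 (urocortin 3) had 385, 229 and 380 in duodenum and 4.54 to 38.6 in the other 9 pools (2.62, adjusted p = 1.49e-05). CCK, SST1, NTS and CHGA stood above liver and muscle but not above brain, while NMU (neuromedin U), which neurons also make, was higher than in every tissue by 1.44. CCK (cholecystokinin) averaged 636 ± 156 in duodenum, 130 ± 29.2 in liver, 2482 ± 211 in brain and 66.4 ± 41.6 in muscle. SST1, somatostatin, averaged 2418 ± 320 in duodenum, 18.8 ± 24.5 in liver, 9427 ± 548 in brain and 29.2 ± 38.7 in muscle. The neurotensin gene NTS averaged 1999 ± 731 in duodenum, 2.92 ± 1.7 in liver, 3262 ± 320 in brain and 22.4 ± 18.1 in muscle. CHGA, a protein of hormone granules, averaged 4469 ± 484 in duodenum, 107 ± 50.6 in liver, 5675 ± 820 in brain and 71.7 ± 61.4 in muscle.

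Of the gut transcription factors, 11 of 22 tested members were higher. CDX2 and CDX1 are homeobox factors that set intestinal identity. CDX2 had 15336, 4510 and 4919 in duodenum and 2.75 to 49.9 in the other 9 pools. CDX1 had 2802, 3446 and 3054 in duodenum and 12.2 to 90.4 in the other 9 pools. Their smallest differences were 7.17 (adjusted p = 4.07e-09) and 5.17 (adjusted p = 7.83e-09), with no pool of another tissue near them. ELF3, an epithelial ETS factor, had 5970, 5244 and 5248 in duodenum and 44 to 647 in the other 9 pools. ISX, a factor that limits carotene uptake in mice, had 557, 640 and 823 in duodenum and 8.3 to 79.1 in the other 9 pools. GATA4, GATA5 and GATA6 were called by 1.78, 2.34 and 0.89, where liver had the next highest mean in each. HNF4A, CREB3L3 and NR5A2, which liver cells also use, differed from liver by 0.74, 0.04 and -1.08, and were above brain by 5.41, 6.34 and 4.80. HOXB5 and HOXB7 were not called, with means of 139 ± 80.4 in duodenum, 132 ± 33.1 in liver, 75.7 ± 59.2 in brain and 196 ± 48.1 in muscle for HOXB5.

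Interferon-responsive genes had 19 of 27 tested members higher than in every other tissue, 17 without pool 1. MX1, an antiviral GTPase, had 6544, 4161 and 1997 in duodenum, 140, 179 and 51.5 in liver, 58.4, 40.1 and 70.4 in brain and 5.69, 9.96 and 38.7 in muscle (smallest difference 4.75, adjusted p = 2.75e-07). IFI6, a small interferon-induced membrane protein, had 89289, 25379 and 34750 in duodenum and 131 to 2556 in the other 9 pools. OASL, of the oligoadenylate synthetase family, had 5642, 6874 and 3172 in duodenum and 83.7 to 462 in the other 9 pools. DDX60, a helicase of antiviral sensing, had 16792, 12606 and 9844 in duodenum and 13.7 to 693 in the other 9 pools (4.87, adjusted p = 2.45e-07). The RNA sensor IFIH1, the factors IRF1 and IRF7 and the effector RSAD2 were called by 1.46, 2.02, 1.83 and 2.95. LY6E was lower than in liver and brain, by -2.29 and -1.73. The duodenum pools differed among themselves more in this list than overall: the median ratio of the highest to the lowest pool was 1.97, against 1.57 over all genes. In MX1 the brightest pool had 3.28 times the signal of the dimmest.

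T-cell and cytotoxic genes had 7 of 14 tested members higher, against 10.1% of all genes. Against liver alone, 3 of the 14 were lower, where 20.1% of all genes were. GZMA, a protease of cytotoxic granules, had 9835, 9137 and 6466 in duodenum, 188, 169 and 149 in liver, 27.5, 58.7 and 30.3 in brain and 47, 133 and 52.7 in muscle. GNLY, an antimicrobial granule protein of T and natural killer cells, had 7711, 6382 and 6348 in duodenum, 1456, 1549 and 1375 in liver, 326, 283 and 327 in brain and 153, 321 and 196 in muscle. The 3 duodenum pools of both genes lay above the other 9, and the smallest differences were 5.41 (adjusted p = 7.09e-10) and 2.20 (adjusted p = 3.47e-07). CD3E and CD3D are chains of the T-cell receptor complex. CD3E had 2490, 2183 and 2137 in duodenum and 4.92 to 587 in the other 9 pools (1.92). CD3D had 2646, 2839 and 2975 in duodenum and 7.99 to 1155 in the other 9 pools (1.64). The co-receptor CD4 averaged 155 ± 70.1 in duodenum, 344 ± 35.5 in liver, 18.4 ± 15.6 in brain and 32.2 ± 7.21 in muscle. CD8A averaged 177 ± 58 in duodenum, 102 ± 15.5 in liver, 80.2 ± 17.4 in brain and 30.6 ± 29.4 in muscle, and neither was called. The summed signal of 17 such genes was 21599 to 26828 in duodenum, 5961 to 6192 in liver, 1008 to 1238 in brain and 1068 to 1518 in muscle. GZMA and GNLY, with the signals given above, made up much of the duodenum sum, so it does not describe every member.

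Antibody genes were more uneven between the pools. Of 9 tested genes of B cells, plasma cells and antibody transport, 3 were called higher. IGLL1, annotated to the immunoglobulin light chain, had 1314, 2397 and 317 in duodenum, 103, 144 and 83.5 in liver, 12.4, 13.2 and 13.6 in brain and 72.5, 100 and 4.48 in muscle (smallest difference 2.92, adjusted p = 9.75e-04), and pool 2 had 7.57 times the signal of pool 3. PIGR, the receptor that carries antibody across the epithelium, had 2820, 4832 and 4263 in duodenum, 1037, 823 and 901 in liver, 5.92, 5.06 and 5.12 in brain and 16.2, 15.5 and 4.39 in muscle (2.05, adjusted p = 8.38e-06). JCHAIN, the chain that joins secreted antibodies, had 988, 1515 and 169 in duodenum, 145, 416 and 218 in liver, 52.2, 17.7 and 45.5 in brain and 202, 185 and 235 in muscle, and was not called. Antigen presentation genes had 5 of 11 tested members higher, among them TAPBP (1.26), TAP1 (1.25), TAP2 (1.12) and DMA (0.98), which load peptides onto class I or class II molecules. All 11 were higher than in both brain and muscle, against 2122 of all 11258 genes. TAP1 lost its call without liver pool 2 (adjusted p = 0.0688 in limma) and without duodenum pool 2 (0.0597). Myeloid and innate genes had 3 of 23 higher, LYGL, LYZ and LYN, near the share of all genes (10.1%). Of the 23, 13 were lower than in liver, against 20.1% of all genes. LYN lost its call without liver pool 2 or 3 or any 1 of the 3 duodenum pools (adjusted p of 0.0540 to 0.166). MARCO, a receptor of liver macrophages, averaged 418 ± 103 in duodenum, 5921 ± 339 in liver, 65.6 ± 18.3 in brain and 220 ± 29.5 in muscle.

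Smooth muscle genes, which mark the muscle coats and vessels of the gut wall, had 8 of 12 tested members higher. ACTG2, the actin of visceral smooth muscle, had 25595, 19424 and 27514 in duodenum and 40.8 to 2206 in the other 9 pools. TAGLN, transgelin, had 30627, 11485 and 15824 in duodenum and 628 to 2381 in the other 9 pools. Both were called, with smallest differences of 4.25 (adjusted p = 1.56e-08) and 3.37 (adjusted p = 9.09e-08). MYH11, the heavy chain of smooth muscle myosin, had 11964, 12336 and 15160 in duodenum and 250 to 4005 in the other 9 pools (1.81). DES and SYNPO2, which skeletal muscle also uses, were lower than in breast muscle by -1.88 and -1.57. Of 13 genes of enteric neurons and glia, VIP was the one called higher, at 1556 ± 357 in duodenum, 141 ± 7.6 in liver, 888 ± 248 in brain and 84.9 ± 47.3 in muscle (0.80 against brain, adjusted p = 0.0412), UCHL1 was lower, and 10 were lower than in brain. Proliferation genes had 7 of 47 higher, against 10.1% of all genes. Without duodenum pool 1 the count was 7, of which 5 were among the first 7. Against brain 37 of the 47 were higher and 1 lower, where 31.3% and 30.6% of all genes were. In 15 every duodenum pool lay above the other 9, as in 12.1% of all genes, and in 0 every pool lay below. NCAPG, TK1, CDK1 and TOP2A were called by 1.31, 1.03, 0.80 and 0.78. TOP2A lost its call without liver pool 2 (adjusted p = 0.0514 in limma). VIP lost its call without liver pool 2 or 3, brain pool 1 or 2, or duodenum pool 2 or 3, each left out alone (adjusted p of 0.0502 to 0.140).

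Genes of the pancreas, which lies in the loop of the duodenum, were high in every duodenum pool. Of 14 tested, 10 were higher than in every other tissue and 1 was lower. AMY2A, pancreatic amylase, had 32903, 19935 and 22027 in duodenum and 86.3 to 366 in the other 9 pools. PRSS2, a trypsinogen, had 5575, 7734 and 9205 in duodenum and 1.21 to 63.7 in the other 9 pools. CTRC, a chymotrypsin, had 4360, 4104 and 5007 in duodenum and 2.74 to 62.3 in the other 9 pools. CELA2A, an elastase, had 3293, 2951 and 4433 in duodenum and 5.0 to 59.9 in the other 9 pools. In each the 3 duodenum pools lay together, above all others. Smallest differences were 6.18, 6.72, 6.27 and 5.92, and CPA1, CPB1, CEL and PNLIPRP1 were called too, by 4.31, 5.39, 5.43 and 4.02. AMY1A, a further amylase annotation, was lower, at 202 ± 107 in duodenum, 4019 ± 299 in liver, 429 ± 50.8 in brain and 2577 ± 113 in muscle. The summed signal of 15 measured genes was 47100 to 54307 in duodenum, 4407 to 5013 in liver, 946 to 1083 in brain and 3196 to 4125 in muscle. INS (insulin), made by the endocrine islets, averaged 143 ± 58.1 in duodenum, 107 ± 47.5 in liver, 64.7 ± 39.1 in brain and 142 ± 48.1 in muscle and was not called. IAPP (islet amyloid polypeptide) was called higher than in every other tissue, by a smallest difference of 2.17. The part that pancreas RNA had in the other differences was not tested.

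**Figure D3:**
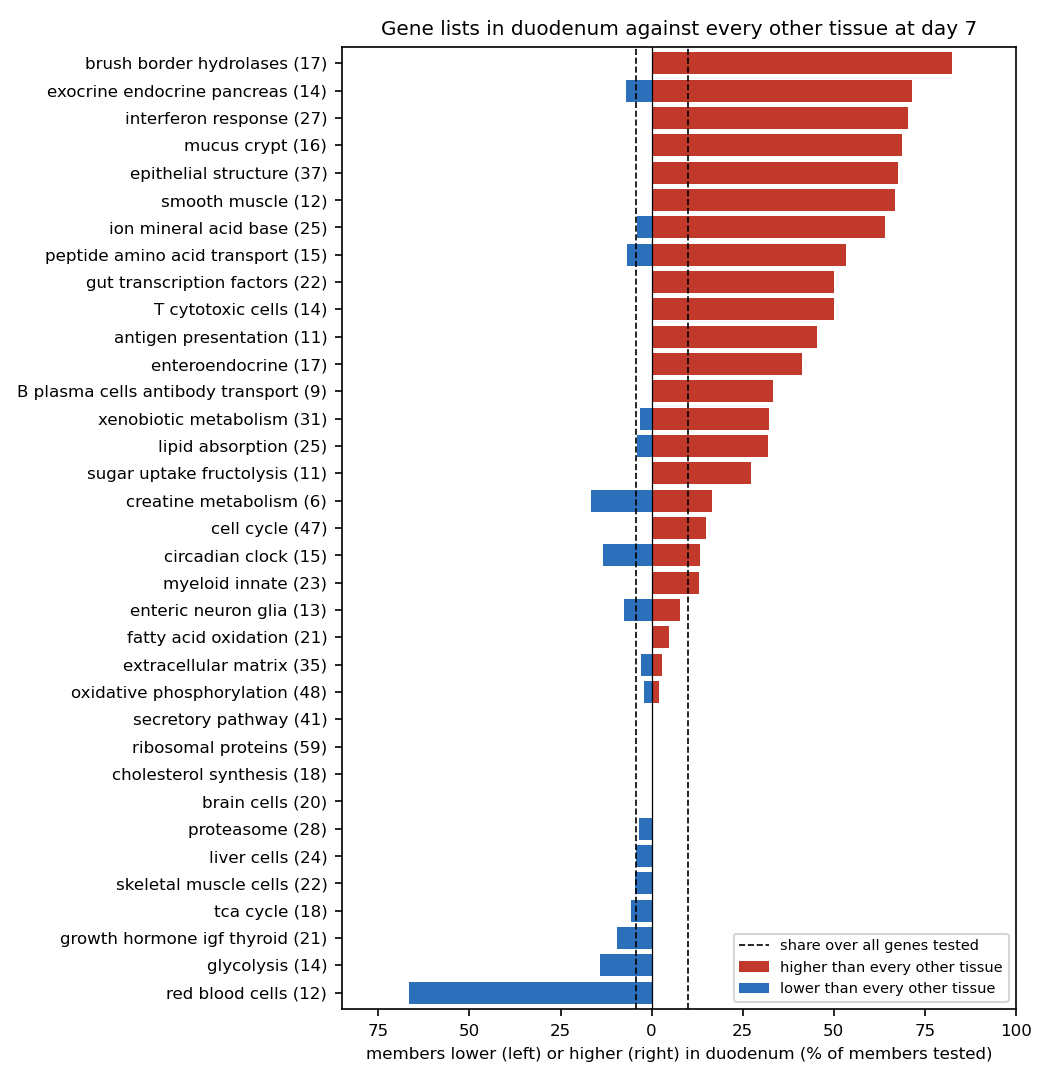
Share of the tested members of each of 35 gene lists that were higher (right) or lower (left) in duodenum than in every other tissue, in percent, with the number tested in brackets and dashed lines at the shares over all genes, 10.1% and 4.37%. Brush border hydrolases have the largest share called higher, 14 of 17, and genes of red blood cells the largest share called lower, 8 of 12.

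The 12 genes furthest below every other tissue were taken from the called genes whose duodenum pools all lay below the other 9. BHMT2, PSAT1 and PSPH among them act in methionine and serine metabolism. BHMT2, a methyltransferase that makes methionine from homocysteine, had 18.1, 57.6 and 46.1 in duodenum, 34579, 29941 and 26772 in liver, 1700, 2044 and 2106 in brain and 30211, 35882 and 29445 in muscle, and its differences were -8.80 ± 0.19 against liver, -4.86 ± 0.19 against brain and -8.87 ± 0.19 against muscle (adjusted p = 1.17e-11). PSAT1, a transaminase of serine synthesis, had 358, 268 and 223 in duodenum, 32073, 33388 and 33486 in liver, 8389, 8242 and 9687 in brain and 2561, 1709 and 2556 in muscle. PSPH, which completes the route, had 42.4, 147 and 169 in duodenum, 73206, 57865 and 59213 in liver, 829, 586 and 787 in brain and 12143, 11886 and 11599 in muscle. Of the 2 tested probe sets of PSPH, 1 was called. In all 3 genes the highest duodenum pool was below the lowest pool of any other tissue; the differences were -6.75, -4.84 and -2.88 for PSAT1 (adjusted p = 1.40e-09) and -8.86, -2.48 and -6.45 for PSPH (adjusted p = 1.40e-06). Further genes of these routes were looked up after their values were seen. PHGDH, which opens serine synthesis, had 27.3, 8.53 and 15.3 in duodenum, 805, 1043 and 1030 in liver, 274, 215 and 301 in brain and 251, 27.6 and 192 in muscle, with a value of muscle close to the highest of duodenum. CBS and CTH, which turn homocysteine into cysteine, were lower by -3.70, -1.37 and -3.02 and by -3.59, -1.47 and -1.52, and SARDH, which demethylates sarcosine, by -3.65, -0.73 and -2.76. CBS lost its call without brain pool 1 (adjusted p = 0.0692 in limma), and SARDH without brain pool 1 (0.0619) or 2 (0.0736) or duodenum pool 1 (0.0868). GAMT, which methylates guanidinoacetate to creatine, had 105, 104 and 170 in duodenum, 19091, 19053 and 19541 in liver, 311, 275 and 563 in brain and 19256, 20420 and 19745 in muscle (nearest difference -1.37, adjusted p = 5.09e-05).

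The other genes of the lowest 12 had several roles. TNNC1, the slow and cardiac form of troponin C, had 113, 13.7 and 35.7 in duodenum, 1993, 3062 and 2163 in liver, 1017, 806 and 1225 in brain and 67956, 68933 and 60178 in muscle (nearest difference -3.81, adjusted p = 3.75e-08). PON1, an esterase carried on high-density lipoprotein, had 151, 103 and 167 in duodenum, 26813, 24716 and 19093 in liver, 1848, 1970 and 1992 in brain and 9839, 6196 and 6864 in muscle (-3.56, adjusted p = 2.96e-10). SLC25A29, a mitochondrial carrier of basic amino acids, had 144, 90.03 and 109 in duodenum against 1408 to 9118 elsewhere (-3.50, adjusted p = 1.26e-10). LGALS1B, a galectin, had 33.5, 83.7 and 84.4 in duodenum and 560 to 6114 in the other 9 pools, and 1 of its 2 tested probe sets was called. ETNK2, an ethanolamine kinase, had 10.3, 5.15 and 9.7 in duodenum and 79.5 to 2999 in the other 9 pools, and 2 of its 7 tested probe sets were called. MEF2C, a transcription factor of muscle and neurons, had 11.9, 76.2 and 25.5 in duodenum and 267 to 1222 in the other 9 pools. TLN2, a talin that links integrins to actin, had 141, 123 and 110 in duodenum and 658 to 2401 in the other 9 pools. MOG, named for myelin oligodendrocyte glycoprotein, had 4.6, 19.2 and 43.1 in duodenum, 367, 395 and 382 in liver, 318, 271 and 292 in brain and 317, 253 and 246 in muscle; the pools of liver, brain and muscle lay close together for this gene.

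**Figure D4:**
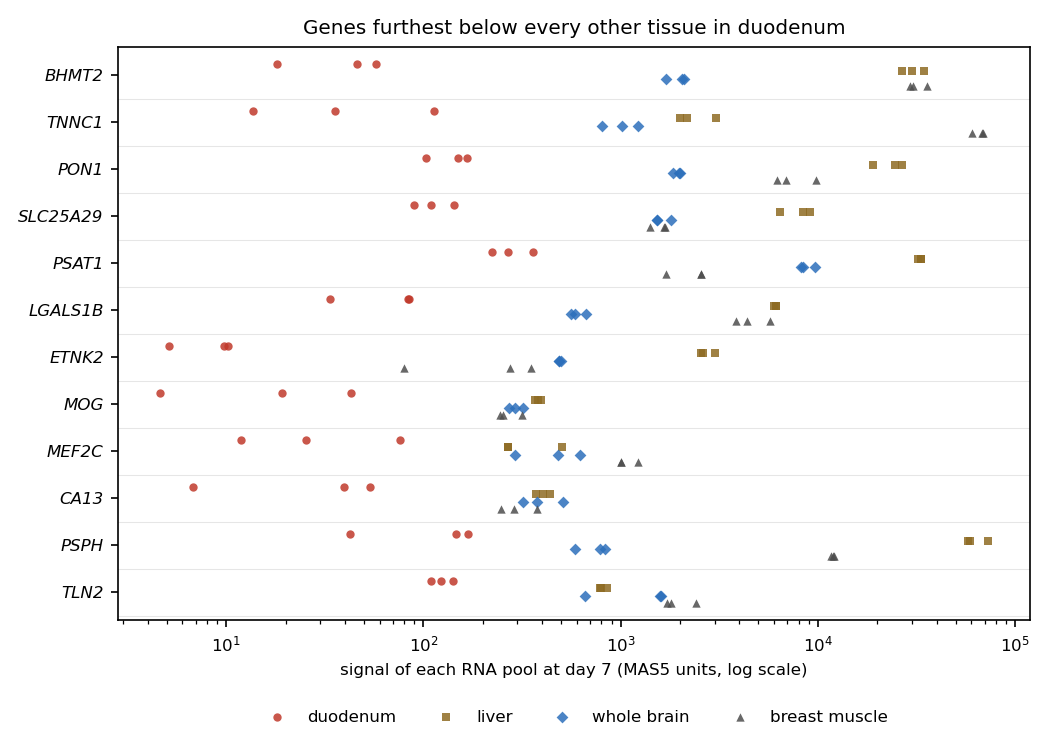
Signals of the 12 genes furthest below every other tissue, 1 point per RNA pool at day 7, on a log scale in the units of the deposited table. Duodenum points lie between 4.60 and 358, and for each gene they stay below every point of liver, whole brain and breast muscle.

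Genes of red blood cells were lower in duodenum, 8 of 12 tested, against 4.37% of all genes, and without pool 1 the count was 8, of which 7 were among the first 8. Chicken red cells keep their nucleus and some of their RNA, so every tissue with blood in it carries these transcripts. HBA1 and HBAD are alpha-type globins. HBA1 had 10703, 11509 and 10619 in duodenum, 60090, 54639 and 55397 in liver, 38407, 36170 and 35529 in brain and 44785, 45997 and 37583 in muscle. HBAD had 2413, 3735 and 2934 in duodenum, 26773, 33367 and 34005 in liver, 15495, 14951 and 16951 in brain and 23223, 23270 and 15162 in muscle. Differences were -2.37, -1.74 and -1.96 for HBA1 (adjusted p = 1.47e-08) and -3.38, -2.39 and -2.75 for HBAD (adjusted p = 2.43e-08). SLC4A1, the anion exchanger of the red cell membrane, had 190, 118 and 91.1 in duodenum and 403 to 984 in the other 9 pools. RHCE, of the Rhesus family, had 172, 109 and 161 in duodenum and 521 to 1089 in the other 9 pools. The summed signal of 13 such genes was 14109 to 15920 in duodenum, 90202 to 92570 in liver, 53562 to 56575 in brain and 55464 to 72978 in muscle. The blood markers are thus lowest in duodenum, and their part in other genes called lower was not tested.

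Genes that all cells use showed few differences of that kind. The 59 ribosomal proteins tested gave 0 calls in limma in either direction, and 0 at an unadjusted p under 0.05 in all 3 comparisons. Duodenum stood between the tissues, with 48 higher than in brain, against 31.3% of all genes. It was lower than liver in 37, against 20.1% of all genes, and lower than muscle in 55, against 28.5%. Oxidative phosphorylation had 1 of 48 higher (SDHD) and 1 lower, NDUFA4, a subunit of the respiratory chain, which had 6085, 5645 and 5945 in duodenum, 28268, 30879 and 28897 in liver, 16224, 14551 and 16548 in brain and 49393, 43639 and 38541 in muscle (-1.41, adjusted p = 1.54e-07). Pair by pair most of the 48 differed. Against muscle 39 were lower and 2 higher, and against brain 3 were lower and 31 higher. Against liver 22 were lower and 3 higher. Of 14 glycolysis genes, LDHB and PGAM1 were lower, by -0.43 and -0.40 from the nearest tissue, and of 18 genes of the citric acid cycle PDHX, at 607 ± 26.1 in duodenum, 3808 ± 150 in liver, 1157 ± 107 in brain and 2959 ± 57.7 in muscle. LDHB lost its call without muscle pool 3 (adjusted p = 0.0594 in limma), and PGAM1 without brain pool 3 (0.0804) or duodenum pool 2 (0.0607). The cholesterol synthesis list gave 0 calls of 18 in limma, and 0 at an unadjusted p, with 15 lower than in liver, against 20.1% of all genes. Of 41 secretory pathway genes 0 were called, 1 at an unadjusted p, and 25 were lower than in liver, against the same 20.1%. Against brain 27 of the 41 were higher and 1 was lower. HADH, of fatty acid oxidation, was the 1 of 21 called higher (0.51 against muscle, adjusted p = 0.00817). Extracellular matrix genes had 1 higher, COL12A1, and 1 lower, COL14A1, of 35. Against brain 25 of the 35 were higher and 4 lower, and against muscle 3 were higher and 26 lower.

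Hormone and clock genes gave scattered calls. FKBP5 and KLF9, targets of glucocorticoid and of thyroid hormone, were lower than in every tissue. FKBP5 had 439, 294 and 354 in duodenum and 677 to 2697 in the other 9 pools (-1.21, adjusted p = 7.14e-05). KLF9 had 1300, 1340 and 1334 in duodenum and 1758 to 6319 in the other 9 pools (-0.55, adjusted p = 0.0152). They were the 2 called of 21 genes of growth hormone, insulin-like growth factor and thyroid action. Of 15 clock genes, PER2, a core repressor, had 2522, 902 and 812 in duodenum and 94.6 to 225 in the other 9 pools, with pool 1 well above the other two (2.40, adjusted p = 8.95e-05). BHLHE40 was higher by 0.63 (adjusted p = 0.0227), its relative BHLHE41 was lower by -1.43 (adjusted p = 0.00371), and HLF was lower by -0.60 (adjusted p = 0.0135). CKMT1B, a mitochondrial creatine kinase, was higher, at 10412 ± 2706 in duodenum, 82.6 ± 71.8 in liver, 4057 ± 620 in brain and 301 ± 81.5 in muscle, and PSMD1, a proteasome subunit, was lower by -0.49 (adjusted p = 0.0352). BHLHE40 and HLF each had 1 of 4 tested probe sets called. Without liver pool 3 the difference of KLF9 was -0.51 and its call was lost (adjusted p = 0.0585 in limma). BHLHE40 lost its call without brain pool 3 (difference 0.53, adjusted p = 0.0801) or duodenum pool 1 (0.44, 0.0912). HLF lost its call without duodenum pool 2 (-0.44, 0.0779), muscle pool 2 (-0.51, 0.0632) or muscle pool 3 (-0.55, 0.0513). PSMD1 lost its call without brain pool 2 (-0.49, 0.0714), brain pool 3 (-0.43, 0.102) or duodenum pool 1 (-0.21, 0.121).

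Part of the pattern was already present at hatch. In a separate fit of the 12 hatch arrays, 1056 of the genes tested at day 7 were higher in duodenum than in every other tissue and 326 lower. Genes that passed the signal filter only at hatch are not in these counts. Of the 1136 genes higher at day 7, 56 did not pass the filter at hatch and could not be called there. The same held for 1 of the 492 lower genes. The calls shared by both ages were 659 for higher genes, 58.0% of the 1136 at day 7 and 62.4% of the 1056 at hatch, and 175 for lower genes, 35.6% of 492 and 53.7% of 326. Of all 11258 genes tested at day 7, those called higher thus numbered 1136 at day 7 and 1056 at hatch, and list counts are given on the same basis. They numbered 14 at day 7 and 12 at hatch for the 17 brush border hydrolases. The counts were 10 at day 7 and 11 at hatch for the 14 pancreas genes, and 11 at day 7 and 10 at hatch for the 22 gut transcription factors. For the 27 interferon genes they were 19 at day 7 and 4 at hatch, and for the 14 T-cell genes 7 and 4. For the 47 proliferation genes they were 7 at day 7 and 27 at hatch. Members that did not pass the filter at hatch count as not called there. Pool 2 of duodenum at hatch also had bright hybridisation controls, 25051 against 7373 and 7511 in the other 2 pools.

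Whether the margin of duodenum changed between the ages was tested as the difference between the day 7 and hatch differences, in 1 limma fit of all 24 arrays. Of the 1136 genes higher at day 7, 140 (12.3%) had a larger margin than at hatch over each of the 3 tissues, as did 241 of 2089 probe sets (11.5%). Since only genes called higher at day 7 were counted, that choice favours a larger margin at day 7. STEAP4, a metalloreductase, had 4888, 1472 and 1959 in duodenum at day 7 and 3.95, 9.62 and 26.1 at hatch, and its difference grew by 5.18 against liver, 5.59 against brain and 5.91 against muscle (adjusted p = 1.20e-07). GZMA had 9835, 9137 and 6466 at day 7 and 42, 118 and 49.8 at hatch, with growth of 4.98 against liver, 6.44 against brain and 5.71 against muscle (adjusted p = 3.96e-07). CA7 had 3684, 3302 and 3599 at day 7 and 63.7, 24.3 and 94.4 at hatch (smallest growth 4.47, adjusted p = 4.67e-06). For all 3, every duodenum pool of day 7 was above every duodenum pool of hatch. CYP1A1 had 3331, 2162 and 3430 in duodenum and 537, 415 and 418 in liver at day 7, but 32, 135 and 76.8 in duodenum and 2562, 2679 and 1718 in liver at hatch, so the order of the 2 tissues was the opposite at the 2 ages (growth of 7.10 against liver, 5.16 against brain and 4.38 against muscle, adjusted p = 4.51e-07). LOC420486 had 519, 881 and 485 in duodenum at day 7 and 1.41, 7.57 and 4.89 at hatch. CA7 and LOC420486 passed the signal filter only through duodenum at day 7, so for them a larger margin at day 7 was largely built in. GATD3AL2 had 10619, 17597 and 16198 in duodenum at day 7 and 710, 366 and 792 at hatch. Of the interferon list, 11 of the 27 tested genes were among the 140, which are 1.24% of all genes tested.

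Of the proliferation genes, CDK1 and TOP2A had lower signals in every duodenum pool of day 7 than in any of hatch. CDK1, the kinase that drives mitosis, had 6889, 4331 and 3307 in duodenum at day 7 and 9308, 14559 and 11110 at hatch, and its difference changed by -0.40 against liver, -1.50 against brain and -3.15 against muscle (adjusted p = 0.491, 0.00115 and 1.61e-08). TOP2A, a topoisomerase of replicating cells, had 1466, 1070 and 959 at day 7 and 3293, 3467 and 3079 at hatch, with changes of -0.37 against liver, -1.81 against brain and -2.49 against muscle (adjusted p = 0.484, 6.41e-05 and 1.35e-07). The margin over brain and muscle was thus smaller at day 7 in both genes, and the change of the margin over liver did not pass. GAMT had 105, 104 and 170 in duodenum at day 7 and 1488, 1167 and 1380 at hatch, and its difference changed by -3.25 against liver, -3.24 against brain and -4.01 against muscle (adjusted p = 8.18e-08). Absorptive genes with the largest margin, RBP2, SLC15A1, SLC6A19 and MEP1A, did not pass all 3 tests of a change, with a largest adjusted p of 0.366, 0.51, 0.727 and 0.875. RBP2 did pass against liver, where its margin grew by 1.6 (adjusted p = 0.00726); none of the 3 tests passed for SLC15A1, SLC6A19 or MEP1A.

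**Figure D5:**
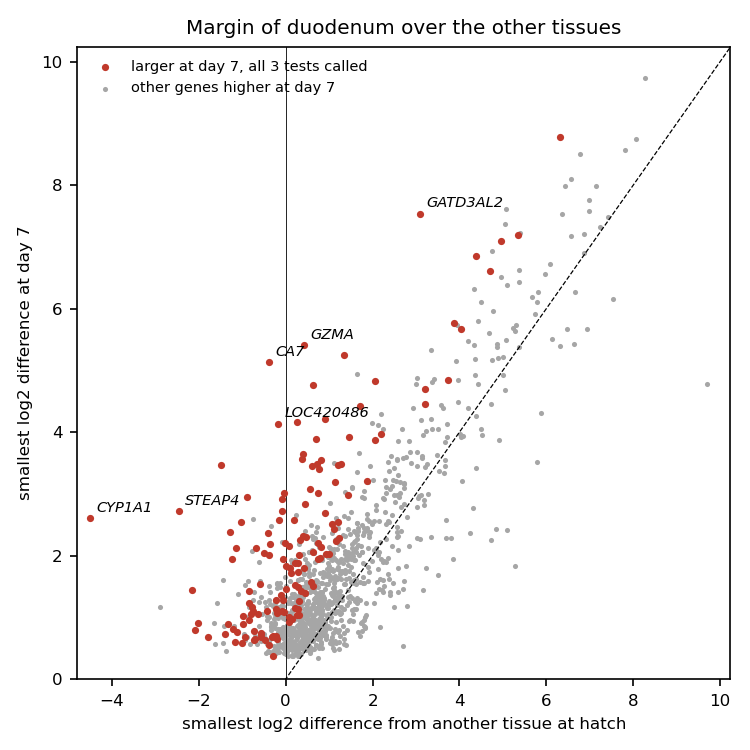
Smallest log2 difference of duodenum from another tissue at hatch (horizontal axis) and at day 7 (vertical axis) for the 1136 genes higher in duodenum at day 7, with the 140 whose margin was larger at day 7 in all 3 tests in red and a dashed line of equal margins. The 6 genes with the largest growth are named; CYP1A1 (-4.50) and STEAP4 (-2.46) lie well left of 0 at hatch, and CA7 (-0.37) and LOC420486 (-0.18) close to it.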

How the data were processed

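Total RNA of whole tissue was hybridised to 24 Affymetrix chicken arrays. The authors deposited linear intensity values, 1 for each probe set and array. Per the submitters' processing notes MAS5 made them; the version, the settings and a genome build were not given in the sources used here. No coordinates are printed. Arrays shared a trimmed mean of 500.1 or 500.2 (2% left out at each end), as scaled arrays do. The number of arrays limits the precision.

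The 96 control probe sets were left out. The log2 of each deposited signal, with 29.3 added, was analysed without further normalization. Probe sets with a day 7 group mean of at least 107, the median signal, were kept (25239). Means of the 4 groups were fitted to the 12 day 7 arrays (limma 3.58.1, R 4.3.3), with an intensity trend in the prior (8 residual and 7.25 prior degrees of freedom). Interactions with age came from 1 fit of all 24 arrays (26111 probe sets, 16 residual degrees of freedom). A gene took its probe set with the highest day 7 mean, which left 11258 genes.

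In simulated data each probe set had the same mean in every group, and 50 were changed at each size, in day 7 duodenum alone. The 3-way call recovered 16% and 18% of log2 changes of 1 and -1, and 74% and 64% of changes of 2 and -2. It made 1 false call among 25239 probe sets. The test between ages recovered 6% in each direction at 1 and 54% and 48% at 2, with 0 false calls. The real tissues differed from each other in many more probe sets, so these rates need not hold for the real calls. Of 38535 probe sets, 27178 had 1 gene symbol in the array annotation, 177 had several and 11180 had none. Current symbols of 26863 came from the RefSeq gene table of GRCg7b, by gene number.

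The members, the 35 gene lists and the rule for named genes were chosen with earlier results of these data known. The rule names the 12 called genes furthest above and furthest below every other tissue, list members, the 6 shared genes with the highest duodenum signal and the 6 genes with the largest interaction; 12 genes chosen after their values were seen are marked so. The labels do not say whether pools shared chicks across tissues, and p-values measure the spread between pools. Replicate numbers were not treated as pairs in the main fit. The 18 same-number pairs of day 7 arrays correlated in their deviations at -0.06 to 0.13 (median 0.05). The 36 pairs of unlike number did so at -0.11 to 0.09 (median -0.02). These values cannot show whether pools shared chicks. Alternatives changed the value added, the normalization, the filter, the arrays fitted, the adjustment, weights, a replicate block and each pool left out.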

Additional observations from a re-analysis of the deposited data

Results flagged for a closer look

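Of 118 named genes, 28 had a difference between duodenum and the other tissues that itself differed between day 7 and hatch in all 3 interaction tests of limma (adjusted p under 0.05). The value given is the smallest of the 3 changes in log2 difference, day 7 minus hatch, where all were positive, and the one nearest 0 where all were negative.

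Of the 22 positive changes, those of absorption and digestion were 2.92 for SLC2A5, 2.85 for SCARB1, 1.98 for APOA4, 1.55 for MEP1B, 1.63 for CDHR2 and 0.89 for PLS1. Secreted and acid-base genes changed by 2.47 (CLCA1) and 4.47 (CA7). Interferon genes changed by 3.45 (MX1), 2.77 (OASL) and 2.71 (IFI6). Lymphocyte, lysozyme and antigen presentation genes changed by 4.98 (GZMA), 2.21 (GNLY), 2.55 (IGLL1), 1.501 (LYGL) and 0.95 (TAPBP). IGLL1 passed only just, with an adjusted p of 0.0495 in limma for the change against liver. The remaining ones were 5.18 for STEAP4, 4.38 for CYP1A1, 4.21 for LOC420486, 4.19 for GATD3AL2, 1.21 for SELENOP1 and 1.00 for BHLHE40. CA7 and LOC420486 passed the signal filter only through duodenum at day 7, which favours a positive change.

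The 6 negative changes were -3.24 for GAMT, -1.93 for UCHL1, -1.75 for BHMT2, -1.22 for PSPH, -1.16 for LGALS1B and -1.16 for COL14A1. In all 6 genes the mean duodenum signal itself was lower at day 7, and in all but PSPH every pool of day 7 was below every pool of hatch. It was 105, 104 and 170 at day 7 and 1488, 1167 and 1380 at hatch for GAMT, 170, 127 and 86.5 at day 7 and 1533, 1889 and 1084 at hatch for COL14A1, 370, 391 and 501 at day 7 and 1415, 1013 and 1318 at hatch for UCHL1, and 42.4, 147 and 169 at day 7 and 190, 206 and 155 at hatch for PSPH. The other tissues moved as well: for PSPH, LGALS1B and BHMT2 the means of liver, brain and muscle were each higher at day 7 than at hatch. PSPH averaged 694 at hatch and 11876 at day 7 in muscle, and LGALS1B averaged 999 and 6081 in liver. In MX1, OASL and IGLL1 pool 3 was the lowest of the day 7 duodenum pools.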

How the results depend on the processing

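Over 22 alternatives, the count of probe sets higher in duodenum than in every other tissue (2089) ranged from 1756 to 2605 and the count lower (961) from 679 to 1422. The count at least 4-fold lower (52) was 132 with the 5th percentile added before log2 and 22 with the median signal added. The count with a larger margin at day 7 than at hatch (241) was 127 and 435 under those settings, 123 with Benjamini-Hochberg adjustment on the largest p and 445 with array weights. The cause was not tested. All other counts stayed within 1.5 times of the main ones. Leaving out 1 pool at a time gave 1838 to 2132 higher, 797 to 1049 lower, 664 to 695 at least 4-fold higher, 50 to 58 at least 4-fold lower, 345 to 372 shared with liver and 180 to 245 with a larger margin at day 7. With the replicate number as a block (replicate block), 2139 were higher, 990 lower and 233 had a larger margin at day 7.

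Of 124 named genes with a call, 108 kept it under all 22 alternatives, 16 lost it under at least 1 and 0 reversed. The rule for naming favours genes with large margins, so these counts do not stand for all calls. With the adjustment on the largest p, 1756 of the 2089 higher probe sets and 679 of the 961 lower ones kept their call. Among the named genes the calls were lost as follows. VIP lost it most often, under 9, LYN, PSMD1 and SARDH under 7 or 8, CKMT1B and CYP2C23b with the 5th percentile added (adjusted p = 0.0674 and 0.0929 in limma), HADH with median centring (0.0771), IRF4 without liver pool 1 (0.0882) or duodenum pool 2 (0.0689), and CYP3A5, not called, passed under 1. Where signals lie near the value added, the size of a difference depends on it: the smallest difference of RBP2 was 8.27 to 11.11. MAS5 signals near background limit what can be said of dim genes.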

Other observations

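Some genes outside the lists, chosen after their values were seen, had wide margins in duodenum. ADA, adenosine deaminase, had 22943, 19062 and 26309 in duodenum, 471, 573 and 511 in liver, 475, 532 and 574 in brain and 822, 672 and 760 in muscle, with differences of 5.37 ± 0.16 against liver, 5.35 ± 0.16 against brain and 4.86 ± 0.16 against muscle (adjusted p = 9.00e-13 in limma). The duodenum pools were close together, and the other 9 pools lay within a narrow range. PLB1, a phospholipase of the brush border in mammals, had 1470, 4338 and 4201 in duodenum and 3.28 to 64.2 in the other 9 pools (smallest difference 5.24, adjusted p = 6.94e-08); in duodenum pool 1 was the dimmest.

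The spread among the duodenum pools was not the same in all lists. The median ratio of the brightest to the dimmest duodenum pool was largest for markers of other tissues and of blood. It was 4.53 for skeletal muscle, 2.74 for liver cells, 2.70 for red blood cells and 2.69 for brain cells. It was 2.10 for genes of B cells and antibody transport, 2.07 for pancreas genes, 1.97 for interferon genes and 1.86 for enteroendocrine genes. Over all genes it was 1.57, with 1.46 for brush border hydrolases and 1.40 for smooth muscle genes. The ratios were taken on signals with nothing added, so genes near background can have wide ratios. The summed duodenum signals were 14109 to 15920 for red blood cells and 4730 to 5273 for liver cells. They were 13752 to 18372 for skeletal muscle and 1745 to 2741 for brain cells. The cause of the spread was not tested.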
